A study of Arabidopsis thaliana with 12 samples.

Results

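In seedlings of Arabidopsis thaliana, 100 genes were taken as lower alike with a compound, with a mutation and with both together. They came from 16546 genes that had a probe set of their own on the array. For each gene a score was formed on the log2 scale, the lowest of the 3 arrays of solvent-treated wild type minus the highest of the other 9 arrays. Genes were kept where the means of the other 3 groups lay within 0.5 of each other, and the 100 highest scores were taken. The same values that chose these genes are described below, so their low levels are no finding and carry no test.

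The groups were wild type with 30 µM hyperphyllin, the mutant amp1-13 with DMSO, amp1-13 with 30 µM hyperphyllin, and wild type with DMSO, with 3 arrays each. Every group was in the Col-0 background and carried 1% DMSO, including the hyperphyllin groups, in which DMSO was the carrier. Whole seedlings, 10 d old, came from multi-well plates with liquid medium kept at 26 °C with 16 h of light, and their total RNA was hybridised to AraGene 1.1 ST arrays, 1 array per sample. The labels call the samples of a group biological replicates and do not say whether they came from separate cultures, so p-values measure the spread between these samples.

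The AMP1 protein resembles carboxypeptidases and sits in the endoplasmic reticulum. Its loss enlarges the shoot meristem, speeds up leaf formation and raises cytokinin levels. Hyperphyllin is a small molecule that gives wild-type seedlings features of amp1 mutants. A gene lower in all of the 3 other groups by an equal amount would be one on which compound and mutation look the same and do not add up. The rule lets the low means differ by up to 0.5, while the median differences with compound or mutation alone were -0.46 and -0.45. Genes on which both effects add up can therefore pass it. The linear model described below called a departure from adding up for 0 of the 100 genes, and the choice bears on that count. The level of AMP1 was not analysed here and gives no check of genotype. In RNA of whole seedlings, fewer cells of a type and less RNA per cell cannot be told apart.

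Values are log2 levels from RMA, in which a difference of 1 is a 2-fold change. Over the 16546 genes the array medians ran from 4.1 to 4.15. Among wild-type seedlings with DMSO, array 1 differed from arrays 2 and 3. It correlated with them at a mean r of 0.972, and with the 9 arrays of other groups at 0.987. Arrays 2 and 3 correlated with those 9 arrays at 0.976 and 0.975. These means with other groups were lower than for any other array. Because the score uses the lowest of the DMSO arrays of wild type, a gene entered only where array 1 was high as well. Among organ markers, the 3 measured mesophyll genes (LHCB4.1, RCA and PSAE-1) had summed log2 levels from 29.8 to 30.3 over the 9 low arrays, against 28.6 to 29.6 in wild type with DMSO. Their sum thus ran opposite to the 100 genes without overlap, as did LHCB4.1 and PSAE-1 singly. RCA did not, since its mean was lower in wild type with hyperphyllin than in wild type with DMSO. The part of these 3 genes in the result was not tested. The 3 other pollen genes (ANX1, VGD1 and MGH3) summed to 6.24 to 7.13 over the 9 arrays, against 6.78 to 7.43 in wild type with DMSO, and the 3 root hair genes to 14.7 to 16.9, against 15.4 to 19.0; both ranges overlapped. The 3 stomatal lineage genes summed to 16.3 to 16.9 in wild type with hyperphyllin, 14.1 to 14.8 in amp1-13 with DMSO and about 14 to 15 in amp1-13 with hyperphyllin, against 14.7 to 15.3 in wild type with DMSO, so that wild type with hyperphyllin lay above the other 3 groups. The 4 shoot meristem and leaf genes summed to 17.7 to 17.8, 18.2 to 18.8 and 19.8 to 20.7 in those groups, against 17.9 to 20.5. The part of these markers in the result was not tested either.

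The 100 genes were mostly small steps above a narrow gap. Scores ran from 0.0995 to 0.683 with a median of 0.139, and 15 of the 100 reached 0.2. For comparison, the median SD of these genes between the arrays of a group was 0.109 in wild type with hyperphyllin and 0.123 in amp1-13 with DMSO. It was 0.13 in amp1-13 with hyperphyllin and 0.127 in wild type with DMSO. The typical gap was therefore about as wide as the SD of these genes within a group. Over all genes the median SD was 0.121, 0.134, 0.131 and 0.188 in the same order of groups. In wild type with DMSO it was thus wider than the typical gap. Over all genes 390 of 16546 (2.36%) had a score above 0, and 385 of those also met the closeness rule. That rule removed little, since 15110 genes (91.3%) met it.

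The threshold cut through a continuous ranking. The last genes inside were BRK1 at 0.1 (rank 99) and AT5G47060 at 0.0995, and the first outside were AT4G10540 at 0.0995 and AT3G58180 at 0.0986. For closeness, AT1G48670 was the widest inside, its low means spanning 0.493. AT4G10150 (0.601) and AT1G61840 (0.696) had a sufficient score but lay outside. Within the 100 genes the span of the 3 low means was 0.163 at the median, and in 25 genes it was at most 0.1.

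**Figure D1:**
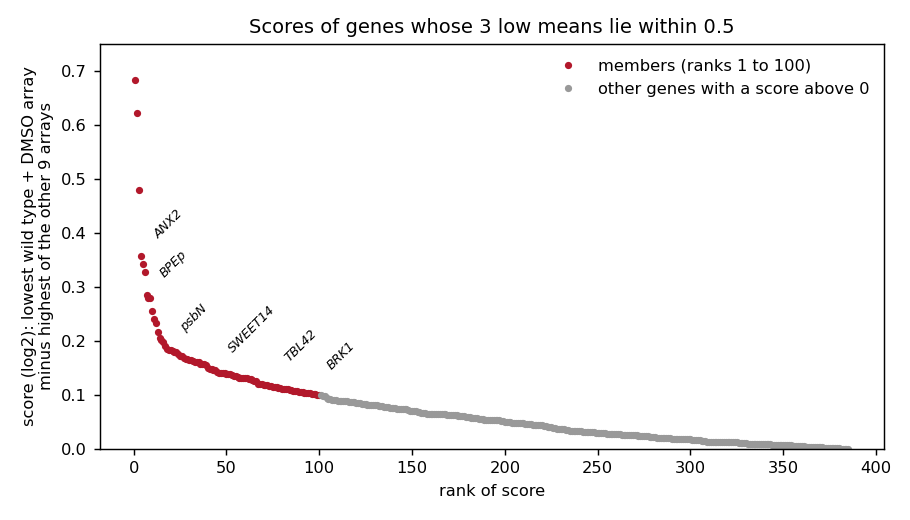
Score of each gene (y axis, log2) against its rank (x axis) for the 385 genes with a score above 0 whose 3 low means lie within 0.5; red points are the 100 members and grey points the others. The scores drop from 0.683 to about 0.2 within the first 15 genes and then run on without a break through rank 100.

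Relative to wild type with DMSO, the median difference over the 100 genes was -0.46 in wild type with hyperphyllin, -0.45 in amp1-13 with DMSO and -0.49 in amp1-13 with hyperphyllin. Over all 16546 genes the same medians were -0.05, -0.04 and -0.04. These 3 comparisons share their DMSO arrays of wild type. A mean at least 2-fold lower was found for 9, 7 and 6 of the 100 genes in the 3 groups in that order, against 0.594%, 0.417% and 1.35% of all probe sets tested. It was found in all 3 groups for 5 genes, AT5G10680, AT1G02570, AT3G45080, SWEET14 and AT5G46090. In contrast, 53 genes were less than 1.5-fold lower in each of the 3 groups.

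The 3 low groups differed little among themselves, as the rule required. The difference of amp1-13 with hyperphyllin from amp1-13 with DMSO ran from -0.35 to 0.37 over the 100 genes, with a median of -0.05, against a median of 0 over all genes. Of the 3 low means, that of amp1-13 with hyperphyllin was lowest for 49 genes, that of wild type with hyperphyllin for 26 and that of amp1-13 with DMSO for 25. It was the highest of the 3 for 16, 43 and 41 genes, in the same order of groups. These counts are a description of chosen genes, and the differences behind them stayed under 0.5 by construction.

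**Figure D2:**
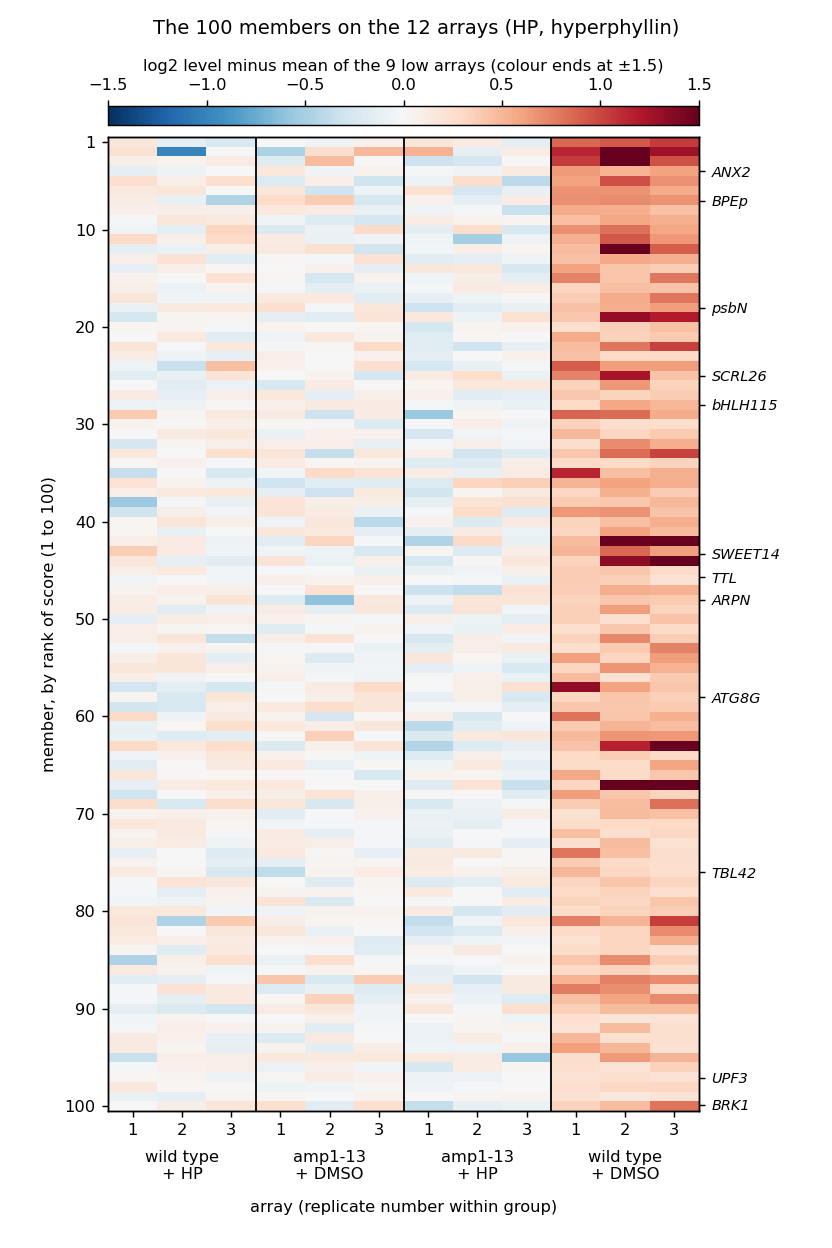
Each row is a member, ordered by score from rank 1 at the top, and each column an array; colour is the log2 level minus that gene's mean over the 9 low arrays, with the 12 members that have a gene symbol named on the right. The 3 columns of wild type with DMSO on the right are red in every row, since the rule asks for it, and array 1 is paler than arrays 2 and 3 in rows such as SWEET14.

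Of the 100 genes, 12 had a gene symbol and 88 carried a locus code alone, to which no role is given here. The 12 symbols belong to unlike processes: a receptor kinase, transcription factors, a sugar transporter, small secreted proteins, and parts of photosystem II assembly, autophagy, cell wall acetylation, RNA quality control and actin assembly. They are described in that order, followed by the locus-code genes with the highest scores.

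ANX2 encodes a receptor-like kinase of the CrRLK1L family that, with its relative ANX1, keeps growing pollen tubes from bursting. Its levels were 1.69, 1.77 and 1.84 in wild type with hyperphyllin, 2.00, 1.78 and 1.89 in amp1-13 with DMSO, and 1.82, 1.79 and 1.96 in amp1-13 with hyperphyllin, against 2.48, 2.36 and 2.44 in wild type with DMSO. The DMSO arrays of wild type lay at least 0.36 above all 9 others, the fourth widest gap, and array 2, not array 1, was the lowest of them. Mean differences were -0.66, -0.54 and -0.57 in the 3 groups. Its signal was dim, with 15.7% of genes at or below the mean of ANX2.

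The family of ANX2 offered 4 other measured genes, which the rule did not choose. CrRLK1L kinases sense RALF peptides and wall integrity. FER, the family's best-known member in seedlings, was at 8.20, 8.42 and 8.36 in wild type with hyperphyllin and at 8.11, 8.08 and 8.38 in amp1-13 with DMSO, against 7.69, 7.74 and 7.98 in wild type with DMSO. Its differences were 0.53 ± 0.12 (SE, n = 3 in each group, limma adjusted p = 0.0517) and 0.39 ± 0.12 (adjusted p = 0.157). THE1, which monitors cellulose defects, was at 0.38 ± 0.12 and 0.49 ± 0.12 (limma adjusted p = 0.12 and 0.0891). ANX1, at -0.08 ± 0.14 and -0.19 ± 0.14, and the co-receptor gene LRE, at -0.23 ± 0.13 and 0.05 ± 0.13, did not pass either. The means of FER and THE1 were thus higher where that of ANX2 was lower, and 0 of the 4 genes passed in either comparison. With compound and mutation together both rose, FER by 0.61 ± 0.12 (limma adjusted p = 0.0226) and THE1 by 0.82 ± 0.12 (adjusted p = 0.00614). That call of FER was lost on leaving out any amp1-13 hyperphyllin array or wild-type DMSO array 2 (limma adjusted p from 0.0526 to 0.1). FER passed with the compound on leaving out wild-type DMSO array 1 (limma adjusted p = 0.0313) or amp1-13 DMSO array 2 (0.0488).

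BPEp, also called BIGPETAL, encodes a basic helix-loop-helix factor that limits petal size. Its levels were 3.70, 3.48 and 3.14 in wild type with hyperphyllin, 3.86, 3.97 and 3.35 in amp1-13 with DMSO, and 3.65, 3.46 and 3.70 in amp1-13 with hyperphyllin, against 4.27, 4.30 and 4.26 in wild type with DMSO. The solvent-treated wild-type arrays were nearly level, with an SD of 0.02, while arrays of amp1-13 with DMSO ranged from 3.35 to 3.97. JAG, another gene of floral organ and leaf growth and the only other one measured of its list, was at 0.41 ± 0.58 with the compound, 0.78 ± 0.58 with the mutation and 1.09 ± 0.58 with both (SE, limma adjusted p = 0.756, 0.541 and 0.292).

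The second helix-loop-helix gene, bHLH115, encodes a positive regulator of the iron deficiency response. Levels were 6.18, 6.19 and 6.28 in wild type with hyperphyllin, 6.34, 6.39 and 6.39 in amp1-13 with DMSO, and 6.23, 6.21 and 6.16 in amp1-13 with hyperphyllin, against 6.56, 6.85 and 6.76 in wild type with DMSO. Array 1 was the lowest of the DMSO arrays and still 0.17 above the highest of the 9 others. Its closest relatives did not share this gap. Of 5 other measured iron-related bHLH genes 0 passed, and bHLH104 was at -0.18 ± 0.12 and -0.04 ± 0.12 with the compound and the mutation (SE, limma adjusted p = 0.484 and 0.913). PYE, a factor of iron homeostasis in the root, was at 0.33 ± 0.19 and 0.47 ± 0.19 (limma adjusted p = 0.385 and 0.243).

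SWEET14 encodes a sugar transporter of the plasma membrane that can also carry gibberellin. It was at 2.12, 1.82 and 1.79 in wild type with hyperphyllin, 2.13, 1.85 and 2.03 in amp1-13 with DMSO, and 1.68, 1.97 and 2.12 in amp1-13 with hyperphyllin, against 2.28, 3.28 and 3.86 in wild type with DMSO. Array 1 of wild type thus lay 0.15 above the highest of the 9 arrays, and arrays 2 and 3 more than 1 above it. The mean differences of -1.23, -1.14 and -1.22 came mostly from those 2 arrays.

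SWEET13, a close copy of SWEET14, showed arrays 2 and 3 alike but not array 1. Its levels were 2.88, 2.65 and 2.51 in wild type with hyperphyllin and 2.93, 3.05 and 2.83 in amp1-13 with DMSO, against 2.51, 3.73 and 4.39 in wild type with DMSO. Whether the probes tell the 2 copies apart was not determined. SWEET13 was at -0.86 ± 0.34 and -0.60 ± 0.34 (SE, limma adjusted p = 0.209 and 0.401). Of the 15 other SWEET genes measured, 12 had lower means with the compound and 6 with the mutation, and 0 passed. Over all genes, 59.5% had lower means with the compound and 58.3% with the mutation. SWEET11, a leaf sucrose exporter gene named after its values were seen, was at 0.30 ± 0.12 and 0.41 ± 0.12 (limma adjusted p = 0.234 and 0.144).

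Among small secreted proteins, SCRL26 belongs to a family of cysteine-rich peptides resembling the pollen determinant of self-incompatibility. Its levels were 1.81, 1.88 and 2.16 in wild type with hyperphyllin, 1.97, 2.03 and 1.71 in amp1-13 with DMSO, and 2.1, 2.24 and 1.88 in amp1-13 with hyperphyllin, against 2.72, 3.21 and 2.41 in wild type with DMSO. The gap of 0.17 was set by array 3 of wild type and array 2 of amp1-13 with hyperphyllin. The 11 other measured SCRL genes lay at median differences of 0.01 with the compound and -0.01 with the mutation, and 0 passed. SCRL22, whose differences were -0.28 ± 0.15 and -0.30 ± 0.15, was the nearest of those named (SE, limma adjusted p = 0.362 and 0.345).

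ARPN encodes plantacyanin, a small blue copper protein of the cell wall that acts in pollination. It was at 4.84, 4.78 and 4.93 in wild type with hyperphyllin, 4.53, 4.12 and 4.88 in amp1-13 with DMSO, and 4.65, 4.90 and 4.91 in amp1-13 with hyperphyllin, against 5.07, 5.13 and 5.12 in wild type with DMSO. The arrays of amp1-13 with DMSO spread widely, while those of wild type with DMSO were nearly level. The means of ARPN differed by -0.26, -0.59 and -0.28.

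psbN is the member encoded in the chloroplast genome, and its product is needed to assemble photosystem II. It was bright, at 10.35, 10.58 and 10.59 in wild type with hyperphyllin, 10.70, 10.42 and 10.62 in amp1-13 with DMSO, and 10.13, 10.28 and 10.34 in amp1-13 with hyperphyllin, against 10.88, 10.99 and 11.07 in wild type with DMSO. All 3 arrays of amp1-13 with hyperphyllin were below all arrays of the other groups, although the nearest 2 arrays were at 10.34 and, in wild type with hyperphyllin, 10.35, with a mean difference of -0.73, while the differences were -0.48 and -0.40 with the compound or the mutation alone.

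The other photosystem II genes of the chloroplast genome did not accompany psbN. All 12 measured had higher means with hyperphyllin in wild type and all 12 had higher means in amp1-13 with DMSO, with medians of 0.11 and 0.08, and 0 passed. psbT was highest, at 0.52 ± 0.19 and 0.42 ± 0.19 (SE, limma adjusted p = 0.189 and 0.302), and psbM was at 0.26 ± 0.12 and 0.23 ± 0.12. psbN lies between psbT and psbH in the chloroplast genome and is read from the opposite strand. The RNA of the nuclear photosystem gene PSAE-1 rose with the compound in wild type, by 0.55 ± 0.10 (limma adjusted p = 0.025). That call was lost on leaving out wild-type DMSO array 2 or 3 or any wild-type hyperphyllin array, with limma adjusted p for PSAE-1 from 0.0576 to 0.12.

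**Figure D3:**
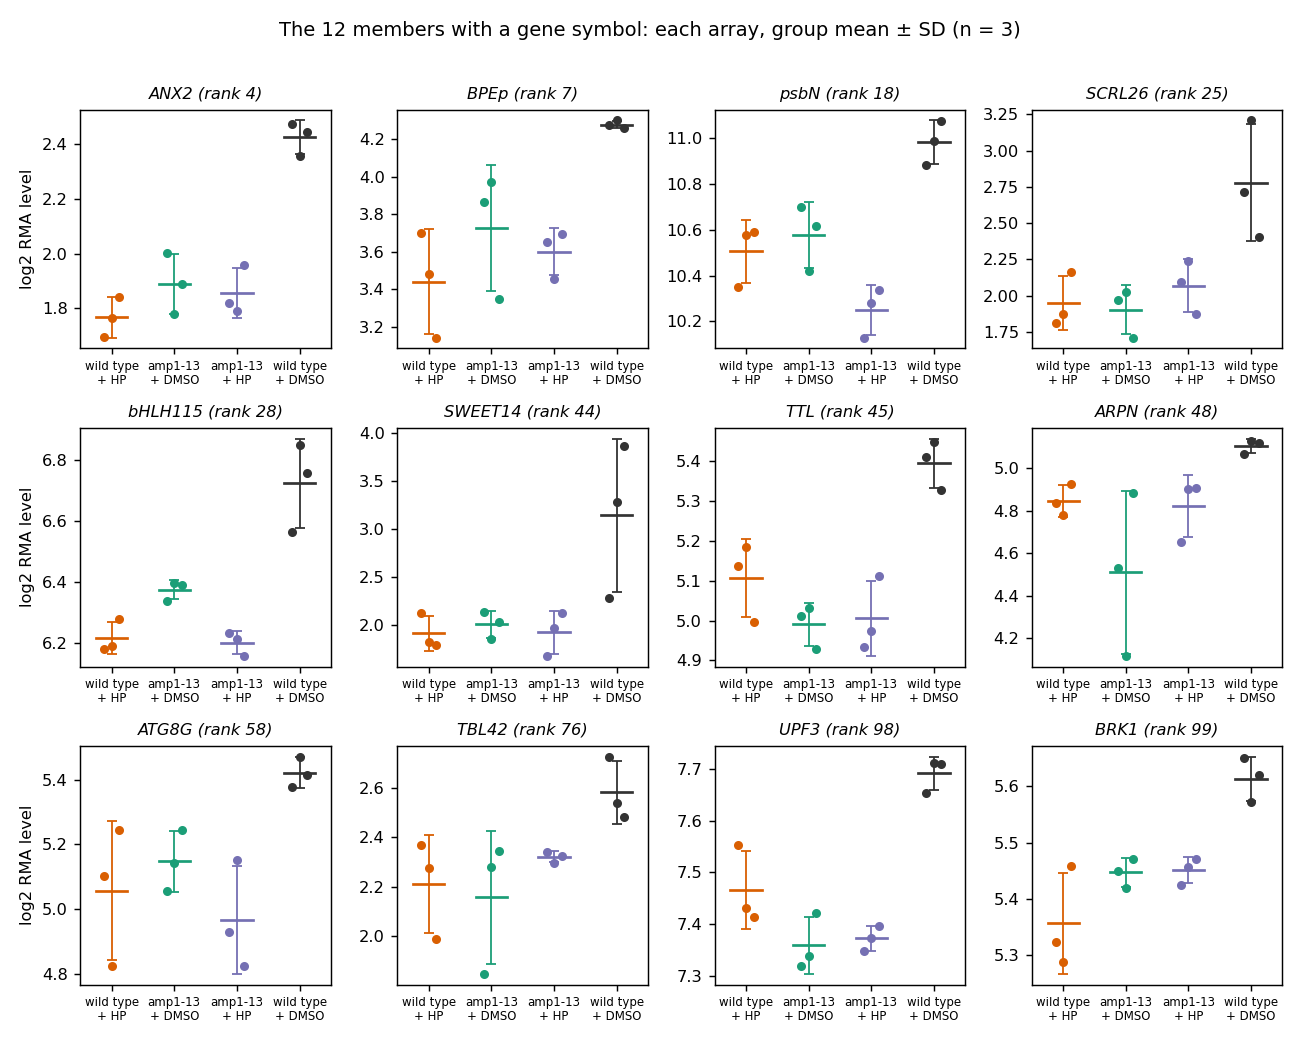
Log2 RMA level (y axis) of the 12 members with a gene symbol in each of the 4 groups (x axis); points are arrays in replicate order, bars the group mean ± SD (n = 3), and each panel has its own scale. The wild-type DMSO arrays are the highest in every panel, by 0.1 for BRK1 and by 0.36 for ANX2, and array 1 of SWEET14 (2.28) lies near the low groups.

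ATG8G encodes a ubiquitin-like protein that is attached to autophagosome membranes. Its levels were 5.10, 4.82 and 5.24 in wild type with hyperphyllin, 5.06, 5.14 and 5.25 in amp1-13 with DMSO, and 4.93, 5.15 and 4.82 in amp1-13 with hyperphyllin, against 5.38, 5.47 and 5.42 in wild type with DMSO. Of the 8 other ATG8 genes, 7 had lower means with the compound and 5 with the mutation, beside 59.5% and 58.3% of all genes, and 0 passed. ATG8B was at -0.35 ± 0.15 and -0.08 ± 0.15, and ATG8E at 0.11 ± 0.11 and 0.61 ± 0.11 (SE, limma adjusted p = 0.0522 for the last value).

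TBL42 belongs to a family whose characterised members add acetyl groups to cell wall polysaccharides. Levels stood at 2.37, 2.27 and 1.99 in wild type with hyperphyllin, 1.85, 2.28 and 2.34 in amp1-13 with DMSO, and 2.34, 2.30 and 2.32 in amp1-13 with hyperphyllin, against 2.73, 2.54 and 2.48 in wild type with DMSO. Its relative TBL38 was at 6.51, 6.78 and 6.80 in wild type with hyperphyllin and at 7.80, 7.96 and 7.70 in amp1-13 with DMSO, against 7.41, 7.23 and 7.32 in wild type with DMSO. TBL38 fell with the compound (-0.62 ± 0.12, SE, limma adjusted p = 0.0271) and was at 0.50 ± 0.12 with the mutation (adjusted p = 0.088). Of the 23 other TBL genes 15 had lower means with the compound and 12 with the mutation, beside 59.5% and 58.3% of all genes. TBL38 was the one that passed. The call of TBL38 was lost on leaving out wild-type DMSO array 2 or 3 or any wild-type hyperphyllin array, with limma adjusted p from 0.0687 to 0.105.

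UPF3 encodes a factor of nonsense-mediated decay, which removes transcripts with early stop codons. It was at 7.55, 7.43 and 7.41 in wild type with hyperphyllin, 7.32, 7.34 and 7.42 in amp1-13 with DMSO, and 7.35, 7.37 and 7.40 in amp1-13 with hyperphyllin, against 7.65, 7.71 and 7.71 in wild type with DMSO. BRK1, a small subunit of the SCAR/WAVE complex that starts actin filaments, was at 5.32, 5.29 and 5.46, at 5.45, 5.42 and 5.47, and at 5.42, 5.46 and 5.47 in those 3 groups, against 5.65, 5.57 and 5.62 in wild type with DMSO. TTL, or TITAN-like, a gene needed for normal embryo and endosperm divisions, was at 5.14, 5.18 and 5.00, at 5.01, 5.03 and 4.93, and at 4.93, 4.97 and 5.11, against 5.41, 5.45 and 5.33 in wild type with DMSO. All of these differences were small, at most 0.40 in size, beside tight arrays.

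**Figure D4:**
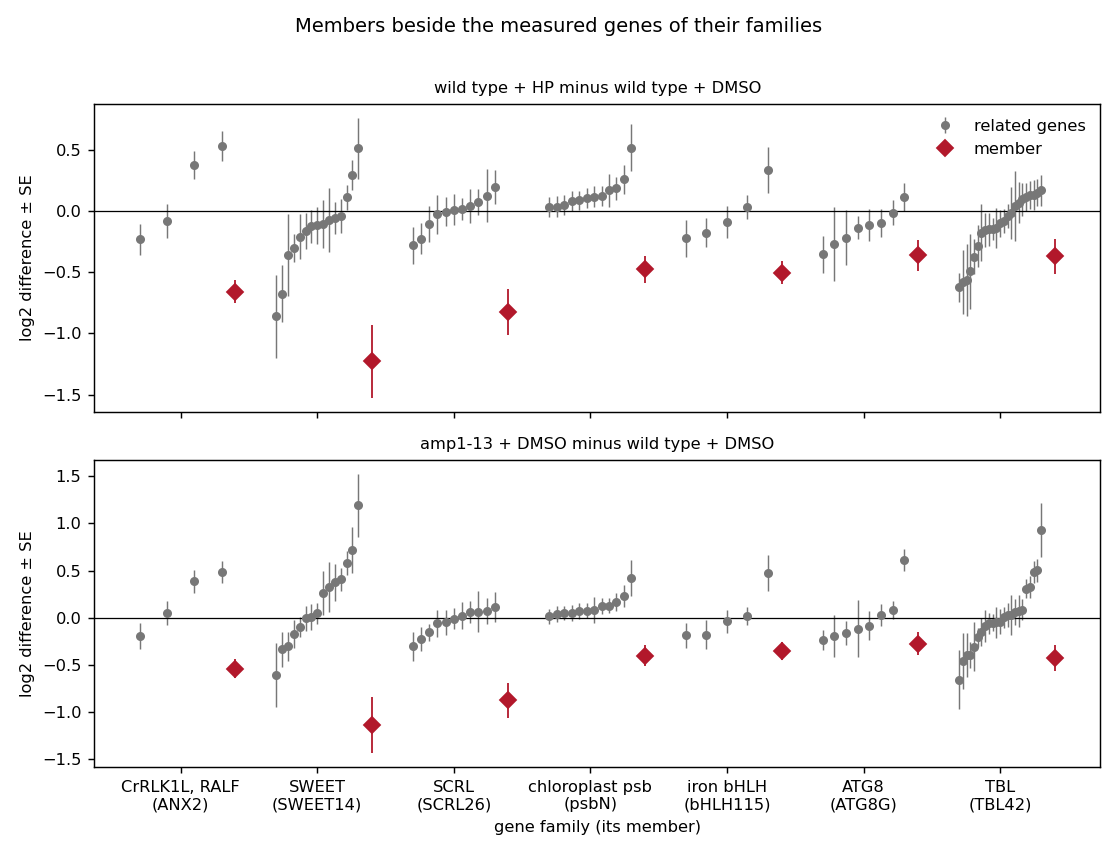
Log2 difference ± SE (y axis) of the measured genes of 7 families (x axis) with hyperphyllin in wild type (upper panel) and with the mutation in DMSO (lower panel), each against wild type with DMSO; red diamonds are members and grey points their relatives. SWEET14 at -1.23 and -1.14 and psbN at -0.48 and -0.40 lie below all their relatives in both panels, while TBL42 lies among its own.

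Of the locus-code genes, AT4G28005 had the widest gap of all, 0.68. Its levels were 4.27, 3.96 and 3.87 in wild type with hyperphyllin, 4.11, 4.04 and 4.16 in amp1-13 with DMSO, and 4.27, 4.22 and 3.96 in amp1-13 with hyperphyllin, against 4.96, 5.02 and 5.14 in wild type with DMSO. Here array 1 of wild type stood with arrays 2 and 3. AT5G10680 was at 3.08, 1.86 and 2.84, at 2.38, 3.11 and 3.35, and at 3.38, 2.73 and 2.96 in the 3 low groups, against 4.00, 4.84 and 4.13 in wild type with DMSO. AT1G02570 was at 2.52, 2.48 and 2.56, at 2.26, 2.91 and 2.44, and at 2.13, 2.18 and 2.43, against 3.48, 3.98 and 3.39 in wild type with DMSO. These were the 3 highest scores.

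AT5G46090 had the lowest means relative to wild type with DMSO, at -1.76, -1.76 and -1.92, but a gap of 0.12. It was at 2.32, 2.57 and 2.61 in wild type with hyperphyllin, 2.61, 2.45 and 2.45 in amp1-13 with DMSO, and 2.27, 2.65 and 2.11 in amp1-13 with hyperphyllin, against 2.77, 4.65 and 5.36 in wild type with DMSO. AT3G45080 had the same shape, with 2.88, 2.91 and 2.71, 2.61, 3.11 and 2.75, and 2.33, 3.07 and 2.67 in the low groups, against 3.26, 4.31 and 4.34 in wild type with DMSO. AT3G27835 was the reverse case. It was at 1.49, 1.63 and 1.52, at 1.75, 1.90 and 2.06, and at 1.79, 1.87 and 2.01 in the low groups, against 3.11, 2.38 and 2.19 in wild type with DMSO, so that array 1 was its highest. The last 2 genes were named after their values were seen.

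The other locus-code genes among the 15 highest scores were AT5G03500, AT1G20690, AT3G46730, AT1G14600, AT2G47870, AT2G28940, AT5G51310, AT1G62870, AT5G28180 and AT1G27420, with gaps from 0.20 to 0.34. Their differences from wild type with DMSO ran from -1.06 (AT5G51310 with hyperphyllin in wild type) to -0.42 (AT1G14600 in the same comparison). AT1G14600 was among the steadiest, at 5.84, 6.02 and 6.0, at 5.80, 5.65 and 5.61, and at 5.97, 5.91 and 5.89 in the low groups, against 6.30, 6.43 and 6.39 in wild type with DMSO. AT1G20690, at 6.11, 6.14 and 5.97, at 6.13, 5.65 and 5.89, and at 6.18, 5.71 and 5.84, against 6.62, 6.63 and 6.51 in wild type with DMSO, had a second, dimmer probe set. That probe set had a score of -0.24 and did not show the gap, its means being 2.76, 2.74 and 2.60 in the low groups, against 2.84 in wild type with DMSO. AT2G18340 also had a second probe set, with a score of -0.39. Among probe sets annotated to exactly 1 gene, the other 98 genes had 1 each.

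The height of the wild-type DMSO arrays above the 9 low arrays differed within the group. The median over the 100 genes was 0.4 for array 1, 0.47 for array 2 and 0.44 for array 3, against 0.02, 0.05 and 0.01 over all genes. Array 1 was the lowest of its group for 50 of the 100 genes, array 3 for 31 and array 2 for 19, against 38.8%, 34.8% and 26.4% of all genes. In 10 genes array 1 rose less than 0.5 times as far above the low arrays as the mean of arrays 2 and 3, and in 33 genes it rose at least as far.

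**Figure D5:**
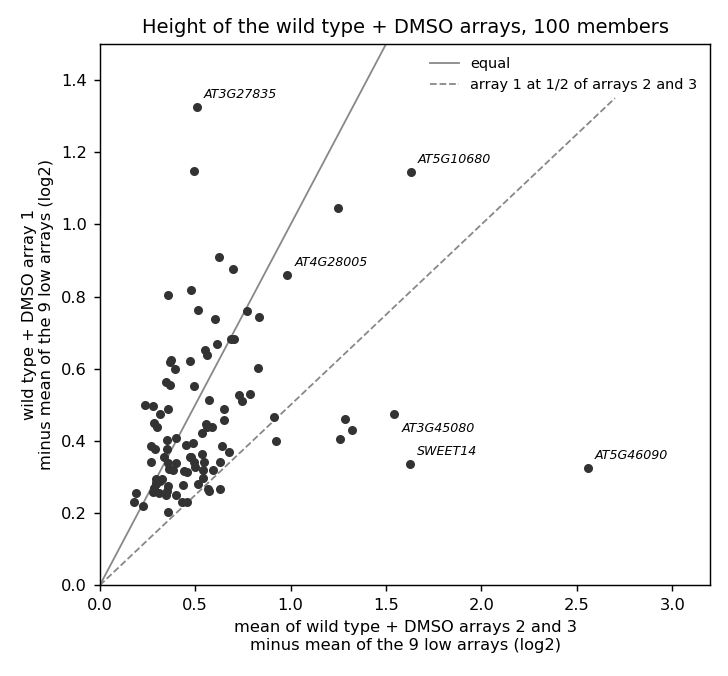
Each point is a member: height of DMSO array 1 of wild type (y axis) against the mean height of DMSO arrays 2 and 3 (x axis), both as log2 level minus the mean of the 9 low arrays, with lines for equal heights and for 0.5 times the height. Most points lie between the lines, and AT5G46090, SWEET14 and AT3G45080 lie far to the right at heights of array 1 under 0.5.

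Array 1 decided which genes were chosen. When it was left out and the rule applied again, 5 of the 100 genes were chosen again (AT5G46090, AT3G45080, SWEET14, AT1G17090 and AT1G48670), and the median score was 0.991 in place of 0.139. On leaving out array 2 or 3 of that group 46 and 25 were chosen again, with median scores of 0.197 and 0.279, and without any of the 9 other arrays 79 to 92. With a difference of group means in place of the gap between arrays, 11 were chosen again, among them SWEET14 and SCRL26.

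A linear model over all 17504 probe sets with a gene (limma, Benjamini-Hochberg adjustment) called 18 of the 100 genes lower with hyperphyllin in wild type, beside 0.48% of all probe sets. It called 8 lower in amp1-13 with DMSO, beside 0.0686%, and 52 lower in amp1-13 with hyperphyllin, beside 1.51%. Since the genes were chosen on these comparisons, the counts are not read further. The genes called in all 3 were AT4G28005, AT1G02570, ANX2 and AT1G14600, and 40 of the 100 were called in none. Between the 3 low groups 0 of the 100 genes were called in any pair, beside 1.14% of all probe sets, and the closeness rule bears on that count.

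These counts rested on single arrays. The count of 18 became 50, 2 and 7 when wild-type DMSO array 1, 2 or 3 was left out, and 3, 1 and 4 when wild-type hyperphyllin array 1, 2 or 3 was. It became 10 on leaving out the amp1-13 DMSO array 3, and 10 and 7 on leaving out amp1-13 hyperphyllin array 2 or 3. The count of 8 became 54 on leaving out wild-type DMSO array 1, and at most 2 on leaving out any other array. The count of 52 became 80, 8 and 12 for the wild-type DMSO arrays in order, and 9, 14 and 17 for the amp1-13 hyperphyllin arrays. It became 28, 29 and 31 for the wild-type hyperphyllin arrays, and 27 and 30 for amp1-13 DMSO arrays 1 and 3.

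In all, 123 measured genes of 17 lists on cell walls, hormones, receptors and seedling organs were compared as related genes, among them the CrRLK1L and TBL genes and the markers given above. With hyperphyllin in wild type 8 of them fell and 2 rose (8.13%, against 1.64% of all probe sets), and their median difference was -0.08, against -0.05 over all probe sets. In amp1-13 with DMSO 0 fell and 1 rose (0.813%, against 0.326%), at a median of -0.03 against -0.04. In amp1-13 with hyperphyllin 6 fell and 9 rose (12.2%, against 4.07%), at a median of -0.05 against -0.04. The lists were chosen with earlier results of these data known, so their larger shares of called genes are not read further. Leaving out wild-type DMSO array 1 gave 44, 38 and 48 called genes in the 3 comparisons. Leaving out wild-type DMSO array 2 or 3 gave 1 and 5 with the compound, and each wild-type hyperphyllin array in turn gave 4, 1 and 5. With the mutation 0 were called on leaving out any array other than wild-type DMSO array 1. With both, the count of 15 became 1 and 5 for wild-type DMSO arrays 2 and 3, 2 for each amp1-13 hyperphyllin array, 8, 8 and 9 for the wild-type hyperphyllin arrays, and 8 for amp1-13 DMSO array 3.

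The 8 related genes that fell with the compound were IDL4 (IDA-like peptide), GH3.17 (auxin conjugation), BIM1 (brassinosteroid signalling), XTH21 and GH9B13 (wall glucans), BGLU47 (beta-glucosidase), TBL38 and SP1L4 (microtubules). None had a score above 0, and GH9B13 came closest, with a score of -0.02. With the mutation 0 of the 8 passed, their differences running from -0.64 (SP1L4) to 0.50 (TBL38), and BGLU47 was at 0.00 ± 0.21 (SE, limma adjusted p = 1). Since these genes were picked for their low levels in wild type with hyperphyllin, their higher means in amp1-13 with DMSO than in that group are not read further. Of the 174 related genes, those of the added families included, 0 had all wild-type DMSO arrays above the other 9, beside 2.36% of all genes. Members had been left out of these 174, which bears on that count. In 10 related genes the wild-type DMSO arrays were all below, among them FER, THE1, LHCB4.1 and PSAE-1. The share of all genes with them all below was not formed, so this count is not read further.

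The signal of the 100 genes was near that of genes at large. Their mean level over the 12 arrays ran from 1.43 to 10.6, with a median of 3.82, against 4.13 over all genes. With 56 of the 100 below that median of all genes, 16 genes lay in the lowest 25% of genes while 5 lay in the highest 10%. Brightness depends on the probes, so these ranks are no order of transcript amounts. The bright genes were AT2G43150 and psbN, followed by AT1G12805, AT1G47970 and UPF3. AT2G43150 was at 10.42, 10.56 and 10.79, at 10.68, 10.63 and 10.70, and at 10.14, 10.37 and 10.47 in the low groups, against 10.92 to 11.04 in wild type with DMSO. AT1G12805 was at 8.50, 8.35 and 8.58, at 8.52, 7.98 and 8.50, and at 8.42, 8.07 and 8.16, against 8.74, 9.18 and 9.35; both were named after their values were seen. Signal over background was not analysed here, so how far the dim genes stand above it is unknown.

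RefSeq held 99 of the 100 genes. Their gene length was 1871 bases at the median, against 1912.5 over all genes, so the genes were of ordinary length. They were spread over all 5 nuclear chromosomes, with 29, 14, 15, 15 and 25 genes on chromosomes 1 to 5, and psbN lay in the plastid. These were 0.682%, 0.556%, 0.447%, 0.617% and 0.659% of the genes measured on each.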

How the data were processed

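The deposited values are log2 expression values, for which the submitters' processing notes name RMA as the authors' method. That method subtracts background, equalises arrays and joins the probes of each set; its software, version and probe definitions are not given in the sources used here. No further normalization was applied. Of 38408 probe sets, 17504 had a gene in the platform annotation: 16746 had 1 gene and 758 several, and 20904 were unnamed here. For 16546 genes the probe set with the highest mean was kept. RefSeq (assembly TAIR10.1) was used for names, lengths and neighbours, and 16412 genes matched.

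The 4 group means were estimated over the 12 arrays together in R 4.3.3 using limma 3.58.1 (8 residual degrees of freedom, prior 3.9), and p-values were adjusted over the 17504 probe sets at 0.05; tests were tried on simulated data. A score, closeness and rank rule chose the 100 genes. The text names the members with a symbol, the 15 highest scores and up to 3 genes per related list with the smallest p; others are marked. Of 455 symbols in 19 lists, 126 were measured, 3 of them members. The SWEET, ATG8, SCRL, iron bHLH and psb lists (51 related genes) were added after the members were seen. Members and lists were chosen with earlier results of these data known. The labels give no batch. Promoter and protein sequences were not used here. The number of arrays limits the precision.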

Additional observations from a re-analysis of the deposited data

How the results depend on the processing

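Counts of called genes moved strongly with the setting. Among the named related genes, no called difference with the compound or with the mutation changed sign under any alternative run. Many of these runs left the compared group means as they were, so a sign could not change there. For the members the rule had set the sign, so it is no check of them. The 18, 8 and 52 members called lower with compound, mutation and both were 5, 2 and 26 with all 38408 probe sets tested, and 75, 69 and 88 with array weights. When fewer probe sets, those with a mean above the median, were tested, 9 were called with the compound and 33 with both. Members under that median could not be called there, and 56 of the 100 lay below the median gene. The count with the mutation was 2 after another quantile normalization. The related genes called, 10 with the compound, 1 with the mutation and 15 with both, were 4, 0 and 7 with all probe sets and 43, 39 and 47 with array weights, and with the mutation 0 after quantile normalization and 2 with dim probe sets left out. Apart from the members left untested among dim probe sets, the cause of these shifts was not tested. With the replicate number as a block, members called lower with the mutation and related genes called with the mutation were both 0, and the other counts stayed within 1.5 times. Same-numbered arrays correlated in their deviations from -0.288 to 0.298, and differently numbered arrays from -0.287 to 0.312. These ranges cannot decide whether the numbers pair samples, which is unknown. Leaving out single arrays gave 1 to 50, 0 to 54 and 8 to 80 members, 1 to 44, 0 to 38 and 1 to 48 related genes, and 0 members between the low groups each time. The rule applied again chose 5 to 92 of the same genes, with median scores from 0.14 to 0.991. By difference of group means 11 were shared, with a median of 0.825. With low means within 0.25 or 1, every probe set used or another quantile normalization, 73, 98, 99 and 75 were shared. Most members are separated by less than 0.2. A shift of that size would close the gap if it lowered the lowest wild-type DMSO array or raised the highest of the other 9. No such shift was run. The alternatives for related genes with compound and mutation together were chosen after seeing the data.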

Other observations

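Among the 20904 probe sets without a named gene, 120 (0.574%) also met the closeness rule and reached the lowest score of the 100 genes, beside 0.604% of the 16546 named genes. The highest score there was 0.728, above that of any named gene. Of the probe sets with several genes 6 did so.

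Some of the 100 genes lay near each other. AT4G24780, TTL, SWEET14 and AT4G25180 fell within a run of 43 protein-coding genes in RefSeq order, 11, 15 and 16 genes apart, a run picked after it was seen. AT4G25180 was at 6.55, 6.49 and 6.47 in wild type with hyperphyllin, 6.26, 6.42 and 6.50 in amp1-13 with DMSO, and 6.40, 6.34 and 6.55 in amp1-13 with hyperphyllin, against 6.69, 6.85 and 6.73 in wild type with DMSO. Of the 25 other genes measured in the run, 9 had lower means with the compound and 8 with the mutation, beside 59.5% and 58.3% of all genes. Their medians were 0.03 and 0.07, and 1 had a score above 0. The run as a whole was thus not lower. AT2G28940 and AT2G29020 lay 6 genes apart, and AT5G10680 and AT5G10745 lay 8 apart, as did AT5G11350 and AT5G11416.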
